A study of Mus musculus with 6 samples.

Results

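Integrins and the adhesion molecules that work beside them were followed in lung innate lymphoid cells (ILCs) of wild-type mice (WT) and mice without Rbm3 (RBM3KO). The genes were chosen by symbol from the deposited count table: every symbol of the integrin alpha and beta pattern, the Icam symbols, and a named set of adhesion receptors, tetraspanins and cytoskeletal linkers. This gave 44 of the 14416 genes of the table. They are 15 integrin alpha subunits, 7 beta subunits, 9 members of the immunoglobulin superfamily, 4 tetraspanins, 3 cytoskeletal linkers, the selectin ligand Selplg, the hyaluronan receptor Cd44, and 4 further genes caught because their symbol begins with Itgb. All mice were C57BL/6J and all had received 25 µg of the mould allergen Alternaria alternata 3 times in 7 days, so both groups are challenged and no unchallenged sample enters. The cells were sorted from lung as Lin-Thy1.2+, that is, without markers of other blood lineages and with the Thy1.2 antigen, and RNA was read by Smart-seq2, which covers whole transcripts. There were 3 samples per genotype. The labels give neither the age of the mice nor how the Rbm3 allele was made, nor whether animals were pooled.

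Integrins are heterodimers of 1 alpha and 1 beta subunit that bind matrix and cell-surface ligands. Talin and kindlin bind the beta tail and switch the receptor to its high-affinity form, and vinculin ties the complex to actin. In lymphocytes, alpha L beta 2 (LFA-1) binds the ICAMs, alpha 4 beta 7 binds the gut addressin MAdCAM-1, alpha 4 beta 1 (VLA-4) binds VCAM-1, and alpha E beta 7 (CD103) binds E-cadherin on epithelium. Tetraspanins are small proteins with 4 membrane passes that gather integrins and other receptors into membrane domains.

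Cd82 and Cd44 were the members that passed the test between the genotypes, both higher in RBM3KO. Both lie on mouse chromosome 2 (mm10), Cd82 at 93419111 to 93463140 and Cd44 at 102811141 to 102901665, each on the minus strand. Itgb7 (chromosome 15, 102215995 to 102231944, minus strand) was the most abundant integrin subunit. Their promoter windows are shown because these 3 genes carry the description that follows. Each window runs from 250 bases before to 50 bases after the RefSeq start in GRCm38.p6, the assembly behind mm10, and is written 5′ to 3′ on the gene's strand. RefSeq windows were found for 29 of the 44 genes. For Cd82, for which 4 windows are listed, the one nearest the annotated start of the gene was taken. Capitals mark matches to the GC box GGGCGG on either strand.
Cd82, chr2:93462901-93463200: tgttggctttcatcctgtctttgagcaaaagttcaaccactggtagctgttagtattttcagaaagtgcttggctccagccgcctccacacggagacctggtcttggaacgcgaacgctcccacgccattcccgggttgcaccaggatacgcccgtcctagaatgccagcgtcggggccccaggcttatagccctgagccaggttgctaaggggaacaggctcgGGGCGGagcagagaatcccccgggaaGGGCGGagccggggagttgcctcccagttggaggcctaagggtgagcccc
Cd44, chr2:102901616-102901915: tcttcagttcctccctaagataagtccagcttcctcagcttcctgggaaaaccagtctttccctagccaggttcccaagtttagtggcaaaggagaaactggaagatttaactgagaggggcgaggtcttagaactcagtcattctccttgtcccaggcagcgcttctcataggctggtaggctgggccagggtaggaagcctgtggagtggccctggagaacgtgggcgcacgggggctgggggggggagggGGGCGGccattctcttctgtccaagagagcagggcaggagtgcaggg
Itgb7, chr15:102231886-102232185: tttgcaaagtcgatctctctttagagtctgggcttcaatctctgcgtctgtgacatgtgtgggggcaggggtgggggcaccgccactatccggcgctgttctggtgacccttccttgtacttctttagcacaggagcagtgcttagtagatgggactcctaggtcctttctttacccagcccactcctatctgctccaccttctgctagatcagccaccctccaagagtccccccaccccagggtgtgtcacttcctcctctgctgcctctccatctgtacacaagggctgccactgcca
The GC box stood 2 times in the Cd82 window and 1 time in the Cd44 window, and these letters are not in the Itgb7 window. Of all 32851 windows, 35.7% hold it at least 1 time. The TATA box letters TATAAA, the AP-1 letters TGANTCA and the RUNX letters TGTGGT, searched on both strands, are in none of these 3 windows, where 13.6%, 7.81% and 16.8% of all windows hold them. A match describes letters only.

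The total count per library ran from 7498247 (RBM3KO replicate 3) to 25068137 (WT replicate 3). Rbm3, the targeted gene, stood at 270, 314 and 293 CPM (counts relative to library size, scaled by the TMM method) in WT and at 26.5, 22.4 and 31.6 CPM in RBM3KO, so every library matched its label. Of 11382 tested genes, 28 were higher and 114 lower in RBM3KO, Rbm3 included (edgeR quasi-likelihood test, Benjamini-Hochberg adjusted p under 0.05). Whether each replicate is its own animal is not stated in the labels, and p-values here weigh a spread that may be technical. Listed ILC markers numbered 13 among the tested genes, of which 6 were higher and none lower at an unadjusted p under 0.05, where 5.46% of all tested genes were higher and 6.87% lower. Their summed level was 5085 to 6183 CPM of the total count in WT and 6548 to 7308 CPM in RBM3KO, without overlap. The T cell markers summed to 468 to 578 and 539 to 698 CPM. Cd3g alone stood at 145, 194 and 193 CPM in WT and 163, 313 and 252 CPM in RBM3KO. Lat stood at 273 ± 15.1 and 335 ± 11.2 CPM, without overlap (SD, n = 3). Cd3e stood at 22.2 ± 9.23 and 20.7 ± 7.82 CPM, and Cd3d at 16.7 ± 13.9 and 7.73 ± 2.98 CPM. Of 7 tested T cell markers, 3 had an estimate above 0 (50.9% of all tested genes), with a median log2 fold change of -0.10. At an unadjusted p under 0.05, 1 was higher and 0 lower (5.46% and 6.87% of all tested genes). The B cell markers summed to 66.1 to 87.2 CPM in WT and 40.5 to 43.2 CPM in RBM3KO, without overlap. In 4 of 7 tested B cell markers every RBM3KO library was below every WT library (10.5% of all tested genes). At an unadjusted p under 0.05, 0 were higher and 1 lower. The NK cell markers summed to 124 to 370 and 119 to 174 CPM, and of 5 tested, 0 were higher and 2 lower at that threshold. Median log2 fold changes were -1.88 for B cell and -0.68 for NK cell markers. The macrophage, monocyte and dendritic cell markers summed to 308 to 491 and 333 to 371 CPM. Of these last, Tyrobp fell from 49.8 ± 7.84 to 19.5 ± 3.90 CPM (edgeR adjusted p = 0.0292). Tyrobp was the marker gene that edgeR called over all these lists. The summed markers of endothelium (25.1 to 71.3 CPM over all libraries), granulocytes and mast cells (12.9 to 27.6), epithelium (14.2 to 269) and stroma (1.64 to 8.25) overlapped between the genotypes. In sorted bulk RNA, fewer cells of a type and less RNA per cell cannot be told apart, and the part of these markers in the results below was not tested.

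Per length, the alpha subunit transcripts were mostly those of alpha L and alpha E. Levels of different genes are compared here only per length, as CPM per kb of exon. Of the 15 alpha subunit genes, Itgal, the alpha L chain, stood highest in WT at 74.9 ± 10.8 CPM per kb (SD, n = 3), followed by Itgae, the alpha E chain, at 49.6 ± 6.73 CPM per kb. Together they made up 91.7%, 89.2% and 87.2% of the summed alpha subunit level in WT and 91.3%, 92.6% and 89.2% in RBM3KO, with overlap. The next alpha subunits in WT were Itgav (3.69 ± 0.910 CPM per kb), Itga5, the fibronectin receptor chain (2.74 ± 1.22), Itga4 (2.73 ± 0.572) and Itga3 (2.57 ± 1.02), and neighbours in this order overlapped between libraries. Itgax, Itgam, Itga2, Itga6, Itgad and Itga1 lay between 0.115 and 1.51 CPM per kb in WT. Itga10, Itga2b and Itga7 had 0 counts in all 3 WT libraries.

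**Figure D1:**
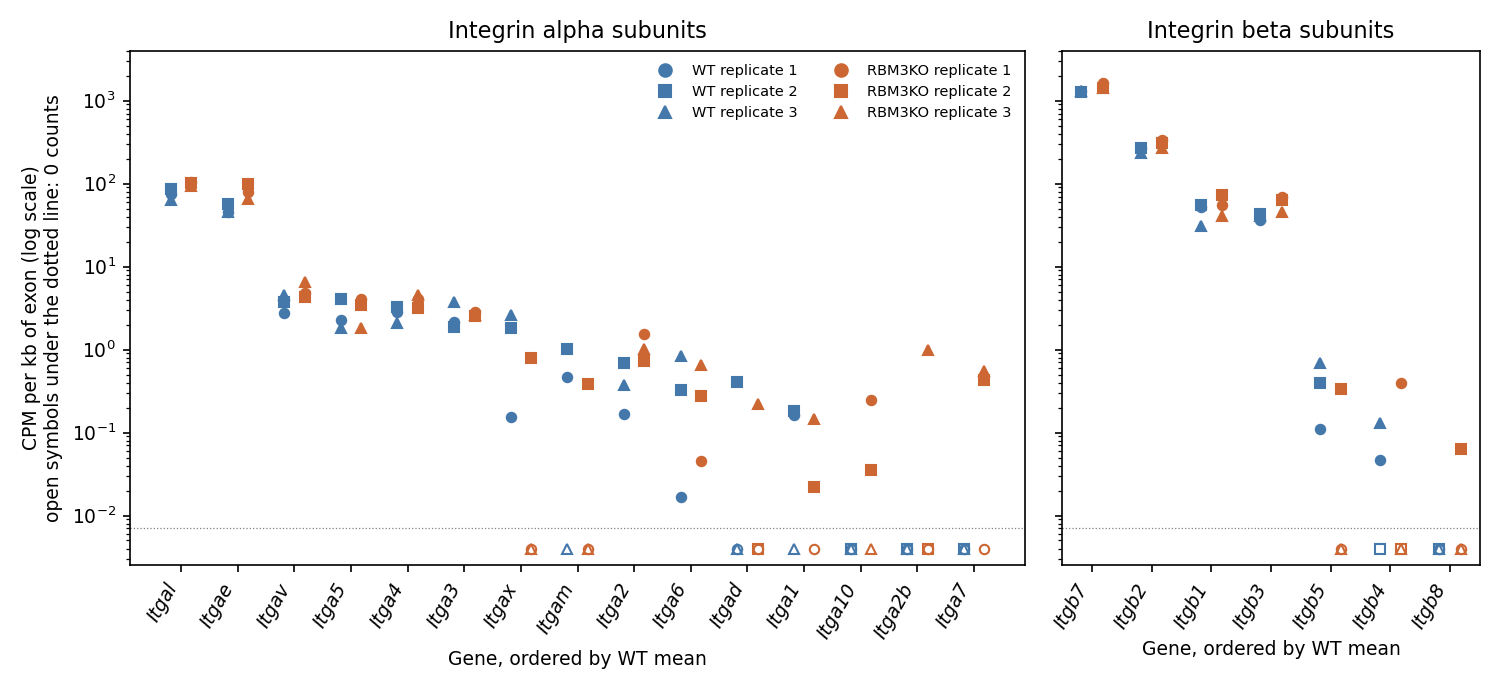
Level of each integrin alpha subunit (left) and beta subunit (right) in CPM per kb of exon on a log scale, with 1 point per library, WT in blue and RBM3KO in orange, and libraries with 0 counts as open symbols under the dotted line. Itgb7 stands at 1288 CPM per kb or higher in every library, while the highest alpha subunit, Itgal, lies between 63.6 and 106 CPM per kb.

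The beta subunits were led by Itgb7, whose product pairs with alpha 4 and alpha E. In WT it stood at 1305 ± 15.2 CPM per kb, above Itgb2, the common leukocyte beta chain, at 258 ± 20.1 CPM per kb in every library. Itgb1, the most widely used beta chain, stood at 45.9 ± 13.0 and Itgb3 at 40.1 ± 3.58 CPM per kb, and the libraries of these last genes overlapped. Itgb7 made up 77.8% to 81.1% of the summed beta subunit level in WT and 76.2% to 79.8% in RBM3KO. Itgb5, Itgb4 and Itgb8 stood at 0.396, 0.058 and 0 CPM per kb in WT.

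Transcripts of Itgb7 were many times those of its known partners. The ratio of Itgb7 to Itgae plus Itga4, per kb, was 27.2, 21.2 and 27.3 in WT and 19.7, 13.7 and 20.4 in RBM3KO. All 3 RBM3KO libraries lay below all 3 WT libraries. For the LFA-1 pair, Itgb2 over Itgal was 3.55, 3.17 and 3.70 in WT and 3.18, 3.01 and 2.91 in RBM3KO, which overlapped. Itgb3 over Itgav, the chains of the vitronectin receptor, was 13.1, 11.7 and 8.90 in WT and 14.3, 14.7 and 6.96 in RBM3KO, again with overlap. These ratios are of transcripts, depend on the exon lengths used, and were not tested.

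Among the alpha subunits 0 of 11 tested genes passed over all genes with edgeR, while DESeq2 called Itgae and Itgal and limma-voom called Itgae. Of all 11382 tested genes DESeq2 called 153 higher and limma-voom 52. At an unadjusted p under 0.05, 2 alpha subunits were higher and 0 lower, where 5.46% and 6.87% of all tested genes were. Itgae stood at 174, 221 and 177 CPM in WT and 304, 386 and 248 CPM in RBM3KO. All RBM3KO libraries were above all WT libraries, with the highest in RBM3KO replicate 2. The difference was 0.71 on the log2 scale (SE 0.16), with an edgeR adjusted p of 0.0635, and this p ran from 0.00101 to 0.292 over 19 other settings, 9 of which put it under 0.05. Itgal stood at 485, 543 and 406 CPM in WT and 677, 657 and 597 CPM in RBM3KO, again without overlap (log2 fold change 0.43, SE 0.11, edgeR adjusted p = 0.125). Itga4, shared by alpha 4 beta 1 and alpha 4 beta 7, stood at 27.6, 31.7 and 20.7 CPM in WT and 39.6, 31.3 and 44.7 CPM in RBM3KO. Its genotypes overlapped by a narrow margin, RBM3KO replicate 2 lying just under WT replicate 2 (log2 fold change 0.53, SE 0.25, edgeR adjusted p = 0.422). Itgav, the chain of the vitronectin receptor that also binds latent TGF-beta, stood at 19.5, 26.2 and 32.3 CPM in WT and 34.3, 30.3 and 45.9 CPM in RBM3KO, with overlap (log2 fold change 0.50, SE 0.27, edgeR adjusted p = 0.510).

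Of the alpha subunits at low level, Itga2, the collagen receptor chain, had 16, 83 and 67 counts in WT and 166, 86 and 54 in RBM3KO. As CPM these are 1.18, 4.88 and 2.62 against 10.8, 5.14 and 7.27, without overlap (difference 1.41 on the log2 scale, SE 0.68, edgeR adjusted p = 0.434). Itga3 and Itga5 had log2 fold changes of 0.05 and 0.20. Itgax and Itgam, the chains of CD11c and CD11b on myeloid cells, ran the other way. Itgax had 9, 133 and 286 counts in WT and 0, 57 and 0 in RBM3KO, and Itgam had 31, 85 and 0 in WT and 0, 32 and 0 in RBM3KO. Both overlapped between the genotypes, with log2 fold changes of -2.48 (SE 1.56) and -1.87 (SE 2.02) and edgeR adjusted p-values of 0.597 and 0.819. Of the 9 tested macrophage, monocyte and dendritic cell markers, 2 had an estimate above 0 (Ccr2 and Emr1), beside 50.9% of all tested genes. At an unadjusted p under 0.05, 0 of these 9 markers were higher and 2 lower, beside shares of 5.46% and 6.87%. Their median log2 fold change was -0.93, and their summed levels, given above, overlapped between the genotypes. Their part in the values of Itgax and Itgam was not tested. Itga1 and Itga6 had log2 fold changes of -1.07 and -0.30, with SEs of 1.97 and 1.48.

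Among the beta subunits 0 of 5 tested genes passed over all genes with edgeR or limma-voom. DESeq2 called Itgb3 higher, as it did 153 of all 11382 tested genes. At an unadjusted p under 0.05, 3 beta subunits were higher and 0 lower (5.46% and 6.87% of all tested genes). Itgb3 stood at 209, 250 and 236 CPM in WT and 402, 364 and 262 CPM in RBM3KO. The genotypes did not overlap, with RBM3KO replicate 3 close to the WT libraries (log2 fold change 0.56, SE 0.15, edgeR adjusted p = 0.124). Without RBM3KO replicate 3 it passed, at 0.72 (SE 0.11, edgeR adjusted p = 0.0262). Leaving out any other library gave edgeR adjusted p-values of 0.217 to 0.422, and 2 of 19 other settings called Itgb3. Itgb3 and Itga2b form the fibrinogen receptor of platelets. Itga2b had 25 counts in RBM3KO replicate 3 and 0 in the other 5 libraries. The platelet markers summed to 3.97 to 17.6 CPM in WT and 16.1 to 23.5 CPM in RBM3KO. Of the 5 platelet markers, F2rl2 stood at 2.96 to 17.5 CPM and the others stayed under 4 CPM in every library. Gp9 had 0 counts in each WT library and 39, 0 and 19 in RBM3KO, Gp1ba had 17 counts in WT replicate 2 and 27 in RBM3KO replicate 3, and Pf4 had 13, 3 and 16 counts in WT and 27, 0 and 0 in RBM3KO. Gp1bb had 1 count in WT replicate 2. The part of platelets in the value of Itgb3 was not tested.

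Itgb7 itself stood at 3514, 3455 and 3532 CPM in WT and 4397, 3817 and 3791 CPM in RBM3KO. The WT libraries were close together and all RBM3KO libraries lay above them (log2 fold change 0.19, SE 0.08, edgeR adjusted p = 0.338). Itgb2 stood at 803, 801 and 698 CPM in WT and 1002, 919 and 808 CPM in RBM3KO, the lowest RBM3KO library just above the highest of WT (log2 fold change 0.25, SE 0.10, edgeR adjusted p = 0.353). Itgb1 stood at 198, 210 and 118 CPM in WT and 214, 277 and 156 CPM in RBM3KO. Replicate 3 was the lowest library of each genotype, and the groups overlapped (log2 fold change 0.30, SE 0.23, edgeR adjusted p = 0.697). Itgb5 had 5, 23 and 59 counts in WT and 0, 19 and 0 in RBM3KO.

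**Figure D2:**
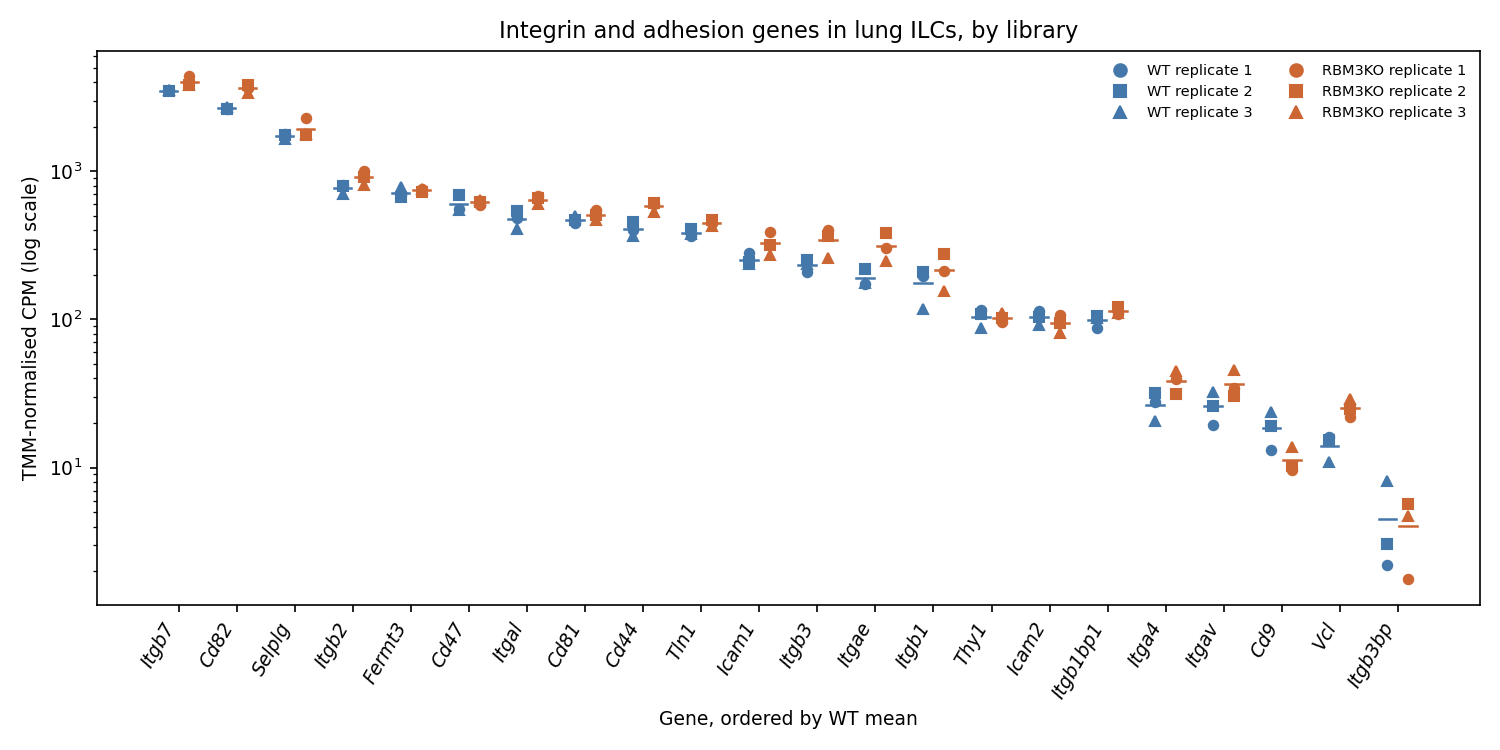
TMM-normalised CPM on a log scale of the 22 members described with values in every library, WT in blue and RBM3KO in orange, with 1 point per library and a line at the mean of each genotype. CPM compares libraries within a gene, not genes. For Cd82 the WT libraries lie between 2613 and 2722 CPM and the RBM3KO libraries between 3395 and 3848 CPM.

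The tetraspanin Cd82, a partner of integrins also known as KAI1, rose in RBM3KO. It stood at 2635, 2613 and 2722 CPM in WT and 3651, 3848 and 3395 CPM in RBM3KO. The WT libraries lay within a narrow band, and every RBM3KO library was well above it. The difference was 0.45 on the log2 scale (SE 0.07), with an edgeR adjusted p of 0.0175 and a ratio of means of 1.37. Per length it was the most abundant of the 44 genes, at 1375 ± 29.8 CPM per kb in WT and 1880 ± 117 CPM per kb in RBM3KO, ahead of Itgb7 without overlap in WT. The call was kept in 13 of 13 settings that used all libraries. Leaving out any of 5 libraries ended it, the exception being RBM3KO replicate 3, with log2 fold changes of 0.41 to 0.50 and adjusted p-values of 0.0234 to 0.137 over the 6 fits that leave out a library.

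The other tetraspanins did not pass. Cd81, part of the B cell co-receptor and widely expressed, stood at 445, 466 and 501 CPM in WT and 546, 506 and 467 CPM in RBM3KO, with overlap (log2 fold change 0.11, SE 0.10, edgeR adjusted p = 0.765). Cd9 stood at 13.1, 19.0 and 23.8 CPM in WT and 9.72, 10.3 and 13.7 CPM in RBM3KO. Its RBM3KO libraries were the lower ones apart from a narrow overlap with WT replicate 1 (log2 fold change -0.73, SE 0.35, edgeR adjusted p = 0.429). Cd151, a partner of laminin-binding integrins, lay between 1.10 and 6.57 CPM over all libraries.

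Cd44, the hyaluronan receptor of activated lymphocytes, also rose. It stood at 404, 457 and 367 CPM in WT and 598, 614 and 533 CPM in RBM3KO. All RBM3KO libraries were above all WT libraries. The difference was 0.51 on the log2 scale (SE 0.11), with an edgeR adjusted p of 0.0484 and a ratio of means of 1.42, and the log2 value lay between 0.42 and 0.59 over 19 other settings. Leaving out any 1 of the 6 libraries ended the call, as did total count scaling, the non-robust fit and both GC corrections without the replicate block (adjusted p-values of 0.0554 to 0.221). Gene counts do not show which Cd44 variant exons were used. Selplg, which encodes the P-selectin ligand PSGL-1, ranked behind Cd82 and Itgb7 per length in WT at 935 ± 39.3 CPM per kb. It stood at 1793, 1757 and 1652 CPM in WT and 2280, 1760 and 1783 CPM in RBM3KO, where RBM3KO replicate 1 stood apart and the genotypes overlapped (log2 fold change 0.16, SE 0.10, edgeR adjusted p = 0.610).

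**Figure D3:**
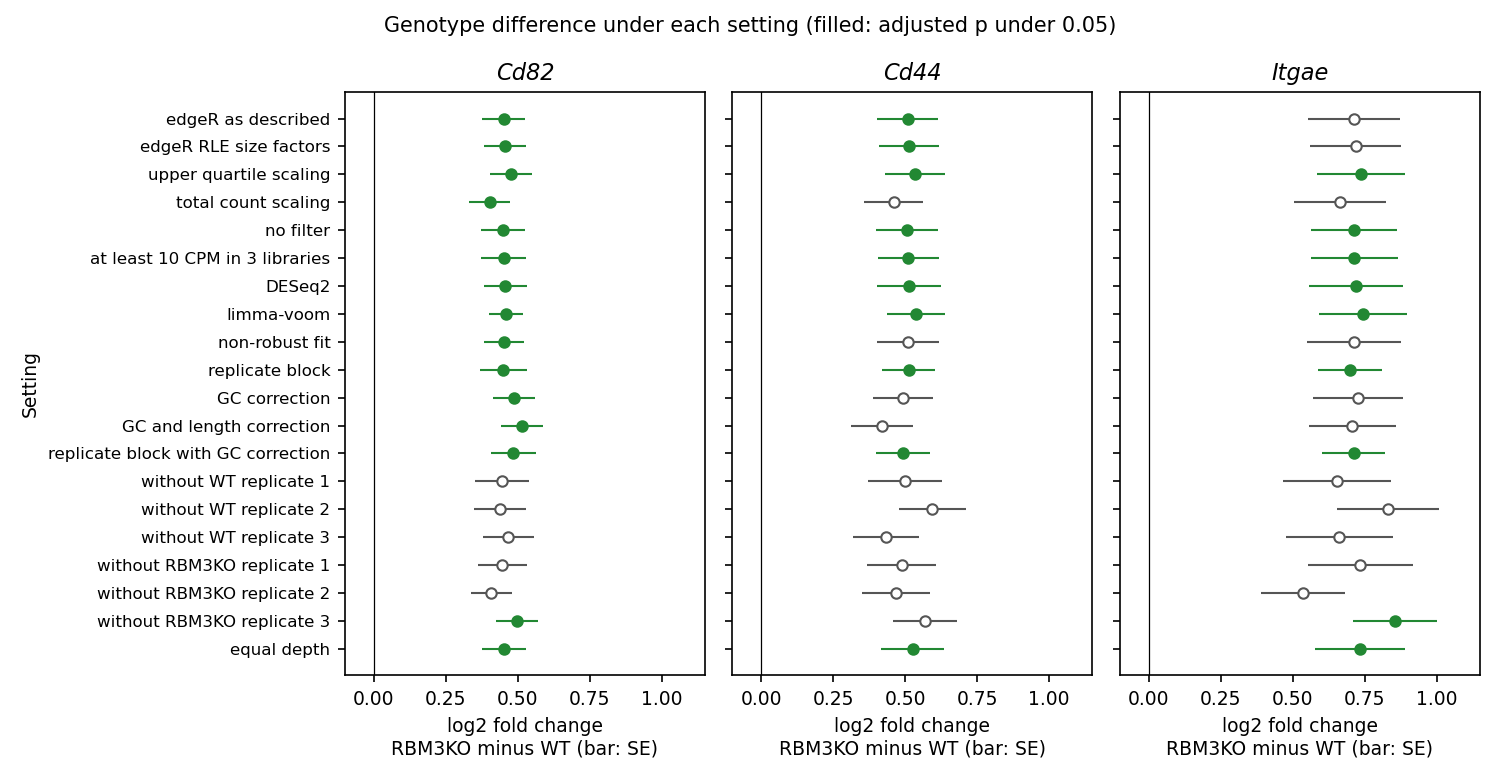
Log2 fold change (RBM3KO minus WT) of Cd82, Cd44 and Itgae under the setting of the text and 19 others, with its standard error as a bar and filled points where the adjusted p was under 0.05. Every point lies above 0. Cd82 is filled in 14 of the 19 other settings, and Cd44 and Itgae in 9 each.

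Of the immunoglobulin superfamily 0 of 9 tested genes passed with edgeR, DESeq2 or limma-voom, and 1 was higher and 0 lower at an unadjusted p under 0.05 (5.46% and 6.87% of all tested genes). That gene was Icam1, a ligand of LFA-1 induced by inflammatory signals. It stood at 279, 243 and 237 CPM in WT and 388, 320 and 273 CPM in RBM3KO, with RBM3KO replicate 3 just under WT replicate 1 (log2 fold change 0.37, SE 0.13, edgeR adjusted p = 0.266). Icam2, a second ligand of LFA-1, stood at 115, 104 and 91.5 CPM in WT and 107, 94.8 and 81.6 CPM in RBM3KO, with overlap (log2 fold change -0.13, SE 0.15, edgeR adjusted p = 0.836). Icam4 and Icam5, which lie directly beside Icam1 on chromosome 9, stayed under 10 CPM in every library.

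Thy1, the antigen of the sort, stood at 116, 108 and 87.9 CPM in WT and 95.8, 103 and 110 CPM in RBM3KO. The genotypes overlapped and the estimate lay near 0, at -0.02 (SE 0.14, edgeR adjusted p = 0.987), with either sign among the other settings. Cd47, which binds thrombospondin and signals to phagocytes through SIRP alpha, stood at 554, 690 and 551 CPM in WT and 589, 622 and 636 CPM in RBM3KO, also with overlap and with either sign among the settings (0.04, SE 0.10, edgeR adjusted p = 0.941). Cd226, the activating receptor DNAM-1, stood at 28.0, 23.4 and 22.0 CPM in WT and 29.6, 30.7 and 29.9 CPM in RBM3KO, without overlap (log2 fold change 0.30, SE 0.23, edgeR adjusted p = 0.697). Pecam1, an adhesion molecule of endothelium and leukocytes, had a log2 fold change of 0.21 (SE 0.19) at 52.1 ± 9.84 and 60.3 ± 2.41 CPM. Of 8 endothelial markers with counts, 5 were tested. These 5 had estimates above 0 (50.9% of all tested genes), with a median log2 fold change of 0.77. Their standard errors ran from 0.47 (Eng) to 1.77 (Kdr), and none passed an unadjusted p of 0.05. The markers not tested ran lower in RBM3KO. Cdh5 averaged 0.662 CPM in WT and 0.366 CPM in RBM3KO, without overlap. Emcn and Tek had 8 and 15 counts in WT replicate 1 and 0 in every other library. The summed level of the 8 markers was 25.1 to 61.5 CPM in WT and 32.4 to 71.3 CPM in RBM3KO. The part of these markers in the value of Pecam1 was not tested. Alcam lay between 0.588 and 5.48 CPM.

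The linkers from integrin tail to actin had 0 of 3 members past the test with edgeR, DESeq2 or limma-voom, and 2 higher and 0 lower at an unadjusted p under 0.05 (5.46% and 6.87% of all tested genes). Vcl, which encodes vinculin, stood at 16.0, 15.3 and 10.8 CPM in WT and 22.0, 25.1 and 28.9 CPM in RBM3KO. The genotypes did not overlap (log2 fold change 0.85, SE 0.29, edgeR adjusted p = 0.237). Tln1, which encodes talin 1, stood at 366, 405 and 376 CPM in WT and 451, 467 and 426 CPM in RBM3KO, also without overlap (0.23, SE 0.09, edgeR adjusted p = 0.323). Fermt3, which encodes the kindlin of blood cells, stood at 695, 670 and 784 CPM in WT and 758, 722 and 754 CPM in RBM3KO, where the WT libraries enclosed those of RBM3KO (0.06, SE 0.09, edgeR adjusted p = 0.896).

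The 4 other symbols are not integrin chains. Itgb1bp1 encodes ICAP-1, an inhibitor that competes with talin for the beta 1 tail, and stood at 88.3, 106 and 102 CPM in WT and 109, 120 and 110 CPM in RBM3KO. The genotypes were apart by a small gap (log2 fold change 0.20, SE 0.13, edgeR adjusted p = 0.624). Itgb3bp, a centromere protein gene, stood at 2.22, 3.06 and 8.15 CPM in WT and 1.76, 5.73 and 4.71 CPM in RBM3KO, with overlap (-0.14, SE 0.78, edgeR adjusted p = 0.976). Itgb1bp2, the muscle protein melusin, had 1 count in WT replicate 1 and 0 in the other 5 libraries, and Itgb1bp3, now named Nmrk2, stayed under 1 CPM.

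**Figure D4:**
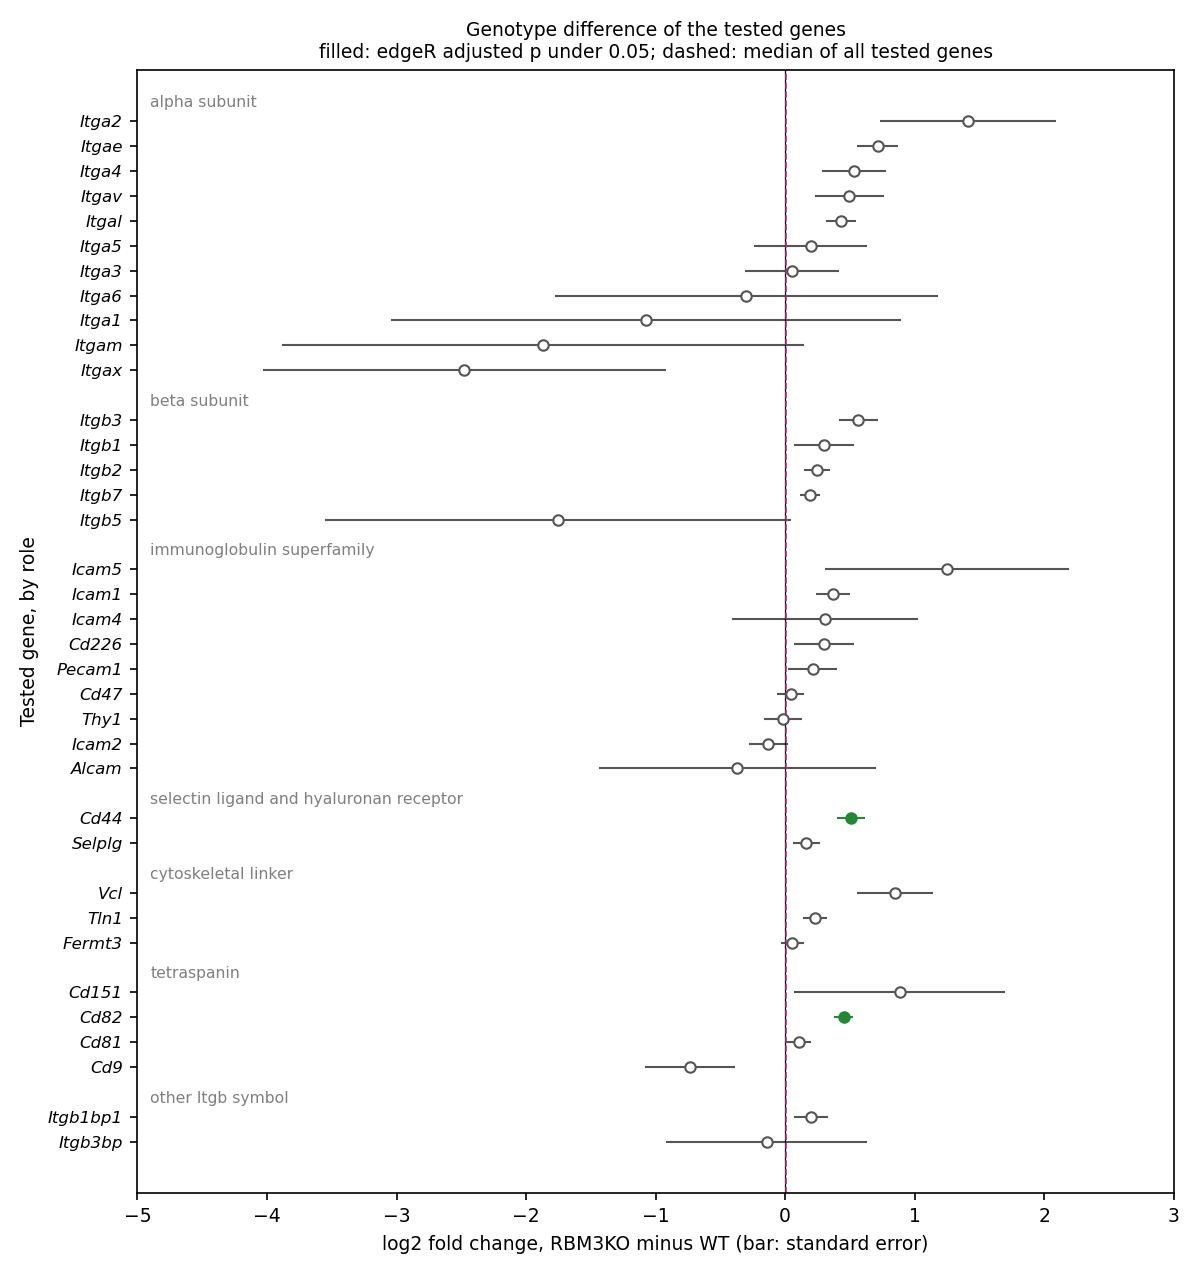
Log2 fold change (RBM3KO minus WT) of the 36 tested genes by role, with its standard error as a bar, filled points for adjusted p under 0.05 and a dashed line at the median of all tested genes. Cd44 at 0.51 and Cd82 at 0.45 are the filled points, and wide bars belong to genes at low counts such as Itgax and Itgam.

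Over the whole set, 36 of the 44 genes passed the filter on low counts, and 2 of them were called higher and 0 lower by edgeR, where 0.246% of all tested genes were called higher and 1.00% lower. DESeq2 called 5 members higher and 0 lower, beside 153 higher and 261 lower of all 11382 tested genes. With limma-voom 3 members were higher and 0 lower, beside 52 and 134 of all tested genes. The 8 genes that were not tested are Itga10, Itga2b, Itga7, Itgad, Itgb4, Itgb8, Itgb1bp2 and Itgb1bp3, each at 0 counts in 3 or more libraries except Itgb1bp3. The median log2 fold change was 0.21 over the 36 tested genes and 0.0087 over all tested genes. At an unadjusted p under 0.05, 10 members were higher and 0 lower, beside 5.46% and 6.87% of all tested genes. In 12 members every RBM3KO library was above every WT library and in 0 every one was below, beside 8.43% and 10.5% of all tested genes. An estimate above 0 was found for 26 members, beside 50.9% of all tested genes. Levels bear on these shares, so they are also given for the 25 members with a mean of at least 10 CPM, beside the 7608 tested genes at that level. Of these members 2 were called higher and 0 lower (0.355% and 1.49% of the genes at that level). At an unadjusted p under 0.05, 10 were higher and 0 lower (7.36% and 8.91%). In 11 the RBM3KO libraries were all above and in 0 all below (10.1% and 11.8%), and 22 had an estimate above 0 (51.9%). The exceptions with an estimate below 0 were Cd9, Icam2 and Thy1. In the same libraries the summed ILC markers were also higher in RBM3KO, as given above.

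The genes that activate integrins or link them to the cytoskeleton, listed apart from the members, had 0 of 39 tested genes past the test with edgeR and limma-voom. DESeq2 called 1 higher (beside 153 of all 11382 tested genes), Flna, which encodes the actin crosslinker filamin A and is named after its value was seen. At an unadjusted p under 0.05, 6 were higher and 0 lower (5.46% and 6.87% of all tested genes), and the median log2 fold change was 0.13, against 0.0087 over all tested genes. Flna stood at 526, 529 and 477 CPM in WT and 575, 774 and 644 CPM in RBM3KO, without overlap (0.38, SE 0.11, edgeR adjusted p = 0.174). Also given, for their CPM averaged over all 6 libraries and with no comparison per length, are Lpxn, the leukocyte paxillin relative leupaxin, at 648 ± 69.5 and 676 ± 83.5 CPM, and Zyx, the focal adhesion protein zyxin, at 603 ± 36.7 and 674 ± 43.2 CPM. Neither passed (log2 fold changes 0.06 and 0.16).

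Among 20 tested ligands and counter-receptors of adhesion, 1 was called lower and 0 higher by edgeR (1.00% and 0.246% of all tested genes). The median log2 fold change was -0.10, against 0.0087 over all tested genes. At an unadjusted p under 0.05, 2 were lower and 1 higher (6.87% and 5.46% of all tested genes). The call ended with limma-voom and when any 1 of the 6 libraries was left out. Fut4, a fucosyltransferase gene named after its value was seen, was counted 14, 14 and 238 times in WT libraries and not at all in RBM3KO, where a count of 0 allows up to 0.177 to 0.400 CPM (edgeR adjusted p = 0.123; DESeq2 called it). Vcam1, Madcam1 and Cdh1, the ligands of the alpha 4 and alpha E integrins, stayed under 10 CPM in every library.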

How the data were processed

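RNA of 6 samples (3 WT, 3 RBM3KO) was measured by Smart-seq2 with Nextera XT libraries, per the labels' protocols. The values are unnormalised counts by gene symbol, deposited as 1 table. The build mm10 and the tools featureCounts 1.6.5, STAR 2.6.1c and Bowtie 1.0.0 stand in the submitters' processing notes without roles. Strand setting and annotation were not stated. The table held 0 columns of other samples. The series' design text names a pair of cell sorters without saying which sample each took, and their part was not tested.

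Genes were filtered with filterByExpr by genotype (11382 kept, with 99.9% of the counts), scaled by TMM and compared with the quasi-likelihood test of edgeR 4.0.16 (R 4.3.3, robust, no covariate), with Benjamini-Hochberg adjustment over all tested genes and a threshold of 0.05. The standard error (SE) is the log2 fold change divided by the square root of F. The fit was tested on simulated data with known changes. These were larger on the log2 scale than those of Cd82 and Cd44, so differences of that size were not covered. An exact permutation test of 3 against 3 cannot go below p = 0.1, so none is given. Symbols were matched to GENCODE M21 (13038 by symbol, 1200 by an older symbol, 178 unmatched). Exon length is the union of basic transcripts. Alternatives were limma-voom 3.58.1, DESeq2 1.42.0, other scalings and filters, GC corrections, equal depth, a replicate block and leaving out each library. Depth differed by 3.34 times between libraries. PCR copies are counted, so floors cover counting error only.

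The members and gene lists were chosen with earlier results of these data known. Genes described with values in every library are those at an unadjusted p under 0.05, the 3 tested genes highest per length in each role (fewer where fewer were tested), and Thy1, Itgal, Itgb2, Itga4, Itgb1, Itgb7 and Itgae. Others given per library (Itga2, Itgax, Itgam, Itgb5, Cd226 and the platelet markers) were chosen after their values were seen. Kits of this kind do not mark strand. Exons of Cd81, Fermt3, Itga4, Itga7, Itgad, Itgb1bp1, Tln1 and Vcl overlap a gene of the other strand that is also in the table. The values of these members are therefore uncertain. The gene called in the ligand list is not reported here.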

Additional observations from a re-analysis of the deposited data

How the results depend on the processing

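Over 19 other settings no member was called lower. Members called higher numbered 5 with DESeq2 and 1 with total count scaling, the non-robust fit, the GC correction and the GC and length correction, and between 0 and 3 when a library was left out. Over all genes, 16 were higher with total count scaling, 48 without a filter, 52 with limma-voom, 153 with DESeq2 and 59 among genes at 10 CPM or more in 3 libraries, against 28, and 261 were lower with DESeq2 against 114. Leaving out a library gave 1 to 18 higher and 11 to 85 lower. Calls that were higher made up 10.7% with total count scaling and 37.0% with DESeq2, against 19.7%. The integrin activation list had 1 higher with DESeq2. The ligand list had 2 lower with DESeq2, 0 with limma-voom and 0 without each library. Leaving out a library leaves fewer samples. For the other settings the cause was not tested.

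Estimates near 0 changed sign. Cd47 was at -0.007 with total count scaling and between -0.0167 and 0.1558 when a library was left out. Itgb3bp ran from -0.4757 to 0.6195 when a library was left out, above 0 for WT replicate 3 and RBM3KO replicate 1 (0.2191). Thy1 was at 0.0087 with upper quartile scaling, 0.0055 with limma-voom, 0.0219 with the GC correction, 0.0541 with that for GC and length, 0.0264 with the replicate block and GC correction, and between -0.127 and 0.0691 when a library was left out. With the longest coding transcript in place of all exons, Cd47 stood at 580 rather than 96.0 CPM per kb in WT. Itgal stood at 105 rather than 74.9, Cd82 at 1456 rather than 1375, and Itgb1bp1 at 51.4 rather than 40.0 CPM per kb. These 4 of the 22 members described with values in every library moved by at least their WT SD.

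Same-numbered samples deviated together with correlations of 0.06, 0.06 and 0.0053, beside -0.0692 to 0.0212 for unlike-numbered samples. As all are small, the numbers were not taken as pairs, though whether they are was not tested. With the replicate block 31 genes were higher and 118 lower, and 3 members were higher, since Itgae passed (0.70, adjusted p = 0.0213).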
